A study of Oryctolagus cuniculus with 24 samples.

Results

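In the lamina propria mononuclear cells (LPMC) of rabbit caeca, 213 of the 17318 genes measured were much lower after ova of the pig whipworm Trichuris suis (TSO) combined with dextran sulphate sodium (DSS), while their mean after DSS alone had changed less. They were chosen by these values. A gene was taken if it was nuclear, if its mean log2(CPM + 1) in TSO DSS was more than 2 below that of Veh Water, if its highest TSO DSS library lay under its lowest Veh Water library, and if its mean in Veh DSS was less than 1 below Veh Water. CPM are the reads of a gene scaled to a library total of 1000000, and 1 on this log2 scale is a doubling for well expressed genes and more than a doubling for genes of a few CPM. The LPMC values of TSO DSS, Veh DSS and Veh Water are therefore a description and carry no test. Without 2 identifiers that the criteria leave out, a further 185 genes were lower in TSO DSS by the same 2 criteria but were also at least 1 lower in Veh DSS. They are called the other falling genes below.

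RNA of caecal LPMC and of caecal intestinal epithelial cells (IEC) of the same 12 New Zealand White rabbits, aged 8 to 10 weeks, was sequenced, with 3 rabbits per group and 24 libraries in all. The TSO Water and TSO DSS rabbits had received 3 doses of 2500 ova, on days 1, 14 and 21, and the Veh Water and Veh DSS rabbits the vehicle. The Veh DSS and TSO DSS rabbits drank 0.1% DSS in fennel tea for 5 days from day 26, the other groups drank the tea alone, and all were sacrificed on day 35. LPMC were obtained by collagenase digestion and density centrifugation and IEC by EDTA, so that each fraction is a mixture of cell types. All DSS rabbits were kept in room A, and rabbit 1 of Veh Water and rabbit 2 of TSO Water in room B.

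The lamina propria is the connective tissue under the gut epithelium. It holds lymphocytes, plasma cells and macrophages between stromal and vascular cells, and a mononuclear preparation from it is enriched for the immune cells. DSS damages the epithelium and lets luminal contents reach this layer, and whipworms live with their anterior end in the epithelium of the caecum. The deposited files give Ensembl identifiers without names, and none of them (0 of 17318) was found in a table of 38822 named rabbit genes made on the assembly mOryCun1.1. The 213 genes therefore stand under their identifiers, with no role given, and the labels LPMC and IEC could not be checked against marker genes. Whether the 213 genes belong to a pathway or cell type was not tested.

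LPMC libraries held 3685522 to 15770474 reads and IEC libraries 13148506 to 27479796. The smallest library was that of rabbit 3 of LPMC TSO DSS. Mitochondrial genes took 9.06 to 18.8% of the reads in LPMC TSO DSS, 13.5 to 24.99% in LPMC Veh Water and up to 46.5% in IEC, and shares below are given of nuclear reads where stated. The part of depth in the results was not tested. With CPM of nuclear reads, 187 of the 213 genes still met the criteria. Over the 213 genes, rabbit 2 of Veh DSS and rabbit 2 of TSO DSS stood apart from the other rabbits of their groups, in both cell types, and values are given by rabbit for this reason.

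The TSO DSS change in LPMC, taken from Veh Water, ranged from -4.80 to -2.001 on log2(CPM + 1), with a median of -2.46. Among the 8922 nuclear genes with an LPMC Veh Water level above 2 on this scale, which were high enough to be able to meet the criteria, the median change was 0.08. The change in Veh DSS had a median of -0.74 and ranged from -0.9998 to 1.04, and 208 of the 213 genes lay below 0. TSO DSS lay below Veh DSS by a median of 1.79, with differences from -4.14 to -1.095. The 3 TSO DSS libraries lay under the 3 Veh Water libraries in all 213 genes, which the choice required, against 12.5% of the 8922 genes. The gap between the lowest Veh Water and the highest TSO DSS library was 1.27 in the median and above 1 in 148 genes.

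**Figure D1:**
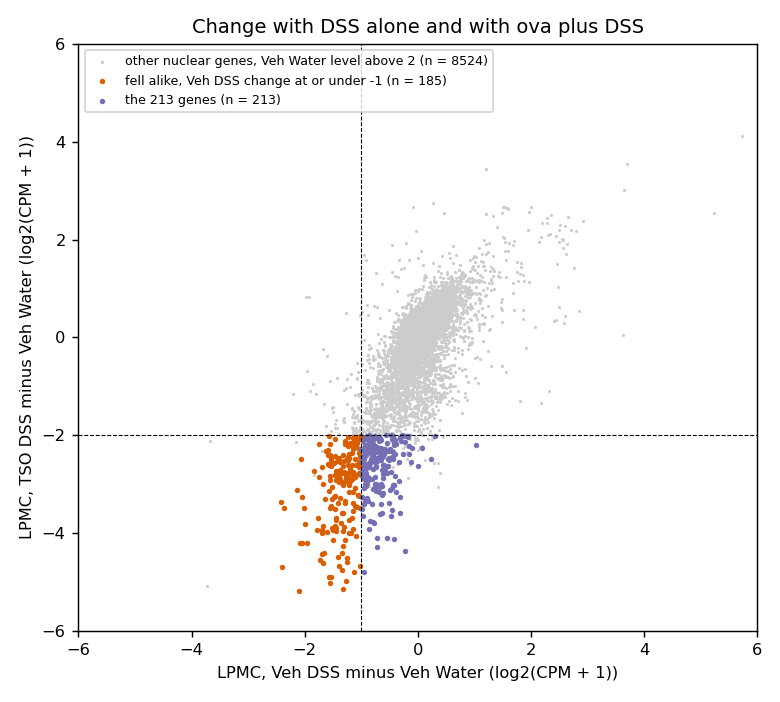
Change in LPMC on log2(CPM + 1) with DSS alone (horizontal axis) and with ova plus DSS (vertical axis), each against Veh Water, for 8922 nuclear genes; a point is a gene, and dashed lines mark the limits of -1 and -2. The 213 genes fill the area just right of the vertical limit, without a gap to the 185 other falling genes left of it.

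The limits did not fall into gaps of the distribution. Just inside and just outside the limit for TSO DSS, the changes were -2.001 and -1.993, and at the limit for Veh DSS they were -0.9998 and -1.002. Within 0.1 of the TSO DSS limit lay 25 of the genes and 28 others, and within 0.1 of the Veh DSS limit lay 44 of the genes and 28 others. The median of the Veh DSS change was -1.31 in the other falling genes, and their median TSO DSS change was -2.91.

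The rabbits within a group differed. In LPMC, the median over the 213 genes of the distance from the Veh Water mean was -2.74, -1.94 and -2.95 in rabbits 1, 2 and 3 of TSO DSS. In Veh DSS it was -0.24, -1.58 and -0.37, so that rabbit 2 of Veh DSS stood apart from the other rabbits of its group and near rabbit 2 of TSO DSS. In TSO Water it was -0.36, -0.22 and 0.01, and in Veh Water 0.38, 0.09 and -0.45. Rabbit 2 of Veh DSS was the lowest of its group in 194 of the 213 genes, against 49.8% of the 8922 genes. It was below all Veh Water libraries in 200 genes, against 28.6% of the 8922, and above the highest TSO DSS library in 155, against 10.9%. In 97 genes it alone of the Veh DSS rabbits lay below the Veh Water range, against 13.2% of the 8922. Its change was below -2 in 40 genes, against 2.2%.

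For the group mean, the description "mainly under ova plus DSS" only restates the criteria. By rabbit, the values of rabbits 1 and 3 of Veh DSS went with it, and those of rabbit 2 less so. Without rabbit 2 of Veh DSS, 334 genes met the criteria, among them all 213. Without rabbit 1 of Veh DSS only 117 did, 112 of them among the 213. Without rabbit 2 of TSO DSS, 577 genes met them, 212 of them among the 213. The choice also moved with the Veh Water rabbits. Without rabbit 1, 2 or 3 of Veh Water, 282, 204 and 165 genes met the criteria, with 160, 182 and 121 of them among the 213. In the other falling genes, rabbit 2 of Veh DSS lay at a median of -2.27 and rabbits 1 and 3 at -0.74 and -1.02.

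**Figure D2:**
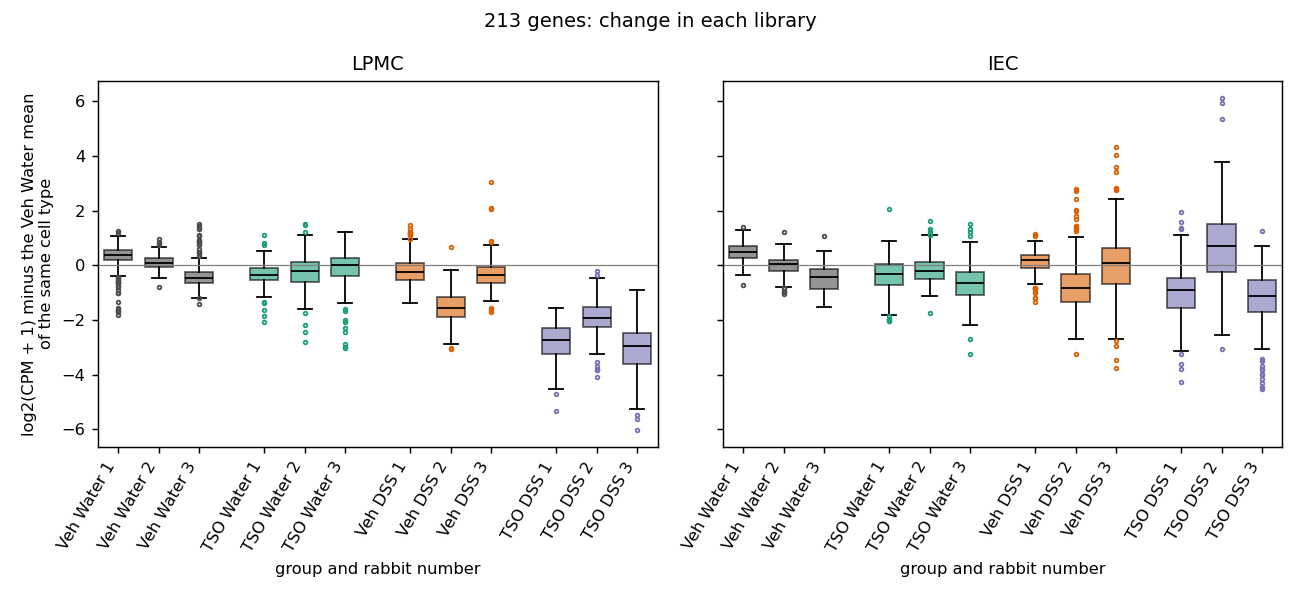
Distance of each of the 213 genes from its Veh Water mean in the same cell type, on log2(CPM + 1), for each library of LPMC (left) and IEC (right); boxes span the quartiles, lines mark medians, whiskers reach 1.5 times the box, and points lie beyond. LPMC medians are -2.74, -1.94 and -2.95 in TSO DSS and -1.58 in rabbit 2 of Veh DSS, and in IEC rabbit 2 of TSO DSS lies above 0 with a median of 0.72.

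Together the 213 genes took 3.86, 3.33 and 2.62% of the nuclear reads in LPMC of Veh Water rabbits 1, 2 and 3, which is 3.27% ± 0.621 (SD, n = 3). In TSO Water they took 2.67, 2.66 and 3.06%. In Veh DSS they took 2.82, 1.19 and 2.83%, and in TSO DSS 0.304, 0.614 and 0.177%, or 0.365% ± 0.225 (SD, n = 3). TSO DSS libraries thus lay under all other LPMC libraries, and rabbit 2 of Veh DSS between them and the rest. The share was carried by few genes, since the 5 with the highest level held 42.0% of the summed CPM in Veh Water. Without these 5 the order was alike, with 1.49 to 2.23% in Veh Water, 0.739% in rabbit 2 of Veh DSS and 0.139 to 0.509% in TSO DSS. In bulk RNA, fewer cells of a type and less RNA per cell cannot be told apart.

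In LPMC of Veh Water, the genes ranged from 2.14 to 12.05 on log2(CPM + 1), with a median of 4.72, and the median of the 8922 genes was 4.80. A mean above 10 CPM was reached by 172 of them, above 100 CPM by 40 and above 1000 CPM by 4. In TSO DSS the median level was 2.10. At or under 3 reads in all 3 LPMC TSO DSS libraries were 3 of the genes, and 174 had a read in all 24 libraries. Rabbit 3 of TSO DSS, the smallest library, had no read in 22 of them.

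The genes lay on 22 chromosomes as the files give them, 113 on the plus and 100 on the minus strand. Chromosome 13 held the most, with 22, or 10.3%, against 9.98% of the 8922 genes. Chromosome 15 held 15, or 7.04% against 3.23%, and chromosome 10 held 8, or 3.76% against 1.97%. No test was made of these shares.

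The largest fall in TSO DSS was that of ENSOCUG00000015234, on the plus strand of chromosome 3. In LPMC it stood at 1209, 728.5 and 679.9 CPM in rabbits 1, 2 and 3 of Veh Water, at 774.5, 414.2 and 629.4 CPM in TSO Water, at 917.7, 123.3 and 719.9 CPM in Veh DSS and at 35.14, 58.27 and 11.94 CPM in TSO DSS. All 3 TSO DSS values lay under all others, and rabbit 2 of Veh DSS came next. In IEC its means were 269.6 ± 171.8 CPM in Veh Water and 166.9 ± 265.8 CPM in TSO DSS (SD, n = 3), and the groups overlapped.

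The next largest was that of ENSOCUG00000027332, on the plus strand of chromosome 12. It stood at 132.7, 132.9 and 93.03 CPM in Veh Water, at 134.4, 48.23 and 52.57 CPM in TSO Water, at 265.6, 33.29 and 112.5 CPM in Veh DSS and at 1.932, 5.929 and 8.411 CPM in TSO DSS. Veh DSS thus held both the highest and, outside TSO DSS, the lowest value, again in rabbit 2.

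Of the 5 genes with a mean above Veh Water after DSS alone, ENSOCUG00000006582 on chromosome 13 had the largest difference. It was chosen after its values were seen. It stood at 22.29, 14.6 and 16.58 CPM in Veh Water and at 11.21, 28.41 and 152.4 CPM in Veh DSS, so that rabbits 2 and 3 lay above all Veh Water libraries, rabbit 3 by far the most, and rabbit 1 below them. In TSO DSS its mean was 3.72 ± 2.784 CPM (SD, n = 3).

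**Figure D3:**
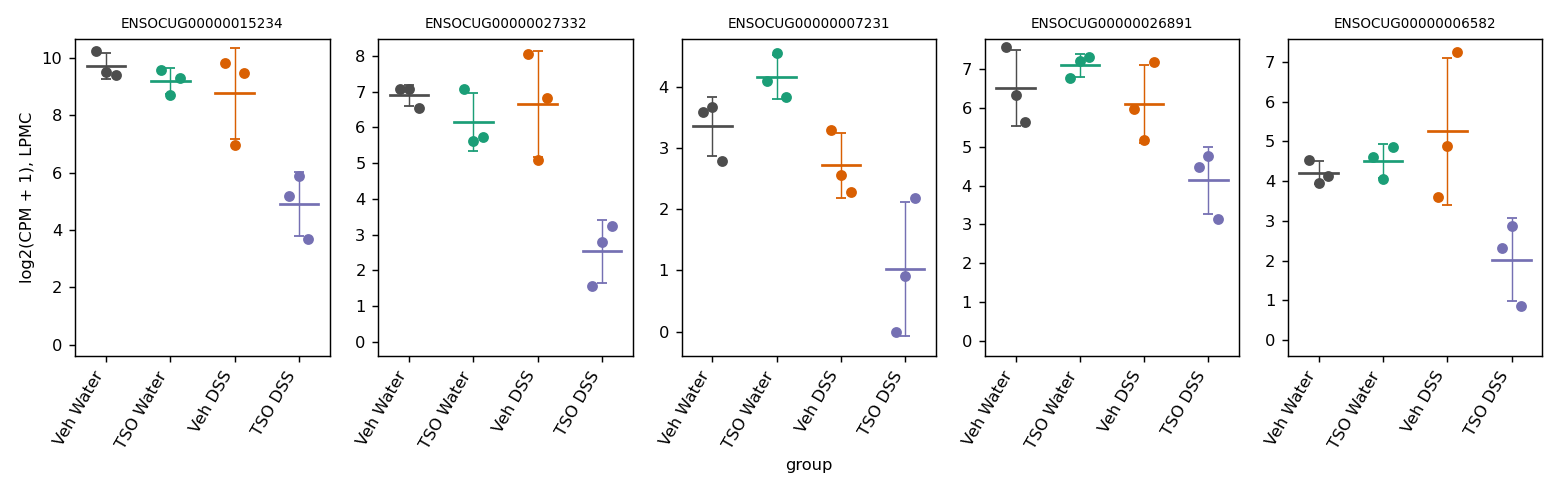
Level in LPMC, as log2(CPM + 1), of 5 of the genes in the 4 groups; points are libraries, ordered by rabbit number, horizontal lines are means and error bars the SD (n = 3). In each, TSO DSS lies under Veh Water, and in the 2 genes on the left rabbit 2 is the lowest of Veh DSS.

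Between groups that the choice set against each other only in part, TSO DSS lay under Veh DSS without overlap in 151 of the 213 genes, or 70.9%, against 6.5% of the 8922 genes and 118 of the 185 other falling genes, or 63.8%. TSO DSS lay under TSO Water without overlap in 194, against 13.6% and 183 of the 185, and the TSO DSS libraries are those the genes were chosen on. Veh DSS lay under Veh Water without overlap in 28, against 4.76%, and in 97 of the 185 other falling genes. These counts follow in part from the criteria and are not evidence for them.

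LPMC of TSO Water are set beside Veh Water as a description only. The TSO Water libraries had no part in the choice, but the Veh Water libraries did, and genes taken for high values there are favoured to appear lower, so that no test is given. On log2(CPM + 1) the median change was -0.16, against 0.02 over the 8922 genes, and 156 of the 213 lay below 0, as did 4165 of the 8922. On the scale of the deposited values the median change was -0.22, and among rabbits of room A alone it was -0.06. TSO Water lay under Veh Water without overlap in 17 genes, against 3.24% of the 8922, and above it in 2, against 7.97%.

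The largest positive changes in LPMC of TSO Water were those of ENSOCUG00000007231 on chromosome 15 and ENSOCUG00000026891 on chromosome 8. ENSOCUG00000007231 stood at 11.04, 11.76 and 5.915 CPM in rabbits 1, 2 and 3 of Veh Water and at 16.14, 22.43 and 13.3 CPM in TSO Water, without overlap, and it had 0, 12 and 13 reads in TSO DSS. ENSOCUG00000026891 stood at 188.5, 80.15 and 48.66 CPM in Veh Water and at 108.3, 147.0 and 158.8 CPM in TSO Water, and these groups overlapped.

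Most of the 213 genes were higher in LPMC than in IEC of the same rabbits. This was tested in TSO Water, whose libraries had no part in the choice. By limma on TMM-scaled log2(CPM + 1), 158 were higher in LPMC and 1 was lower, against 13.8% higher and 4.09% lower of the 11514 genes tested. The share called higher was 15.2% of the 8922 nuclear genes above the level limit. At an unadjusted p under 0.05 with the same fold, 169 were higher and 1 lower, against 14.9% and 4.51% of all genes tested. With the rabbit as a block, which pairs the 2 cell types of an animal, 163 were higher and 1 lower, against 14.0% and 3.93% of all genes tested. The median log2 fold change was 2.12, with a range from -1.89 to 6.09, and the median over all genes tested was 0.00. The other falling genes were alike in this, with 155 of 185, or 83.8%, called higher and a median of 2.43. The difference between both sets was not tested.

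In rabbits of room A alone, 145 were called higher and 1 lower, against 10.9% and 2.99% of all genes tested. IEC TSO Water lay under LPMC TSO Water without overlap in 176 genes, against 25.0% of the 8922 genes. ENSOCUG00000015234 was higher in LPMC by 2.15 on the log2 scale (SE 0.38, limma adjusted p = 0.007), whereas ENSOCUG00000027332 did not pass, with 0.81 (SE 0.46, limma adjusted p = 0.24). The single gene called lower in LPMC was ENSOCUG00000011712 on chromosome 18, named after its values were seen. It had 17.09 ± 3.453 CPM in LPMC and 65.34 ± 25.96 CPM in IEC of TSO Water (SD, n = 3). Its log2 fold change was -1.89 (SE 0.22, limma adjusted p = 0.0012).

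**Figure D4:**
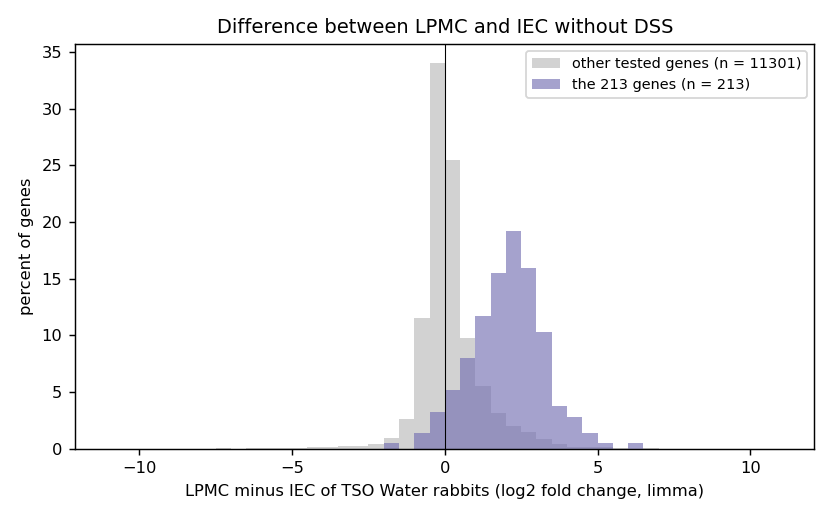
Distribution of the log2 fold change of LPMC against IEC in TSO Water rabbits, as a percent of genes per bin of 0.5, for the 213 genes and the 11301 other genes tested. The 213 genes centre at 2.12, and all genes tested at 0.00.

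The distance between the cell types was not the same in all groups. The median difference in level of LPMC minus IEC over the 213 genes was 1.95 in Veh Water, 2.20 in TSO Water, 1.47 in Veh DSS and -0.13 in TSO DSS, on log2(CPM + 1). IEC lay under LPMC without overlap in 175 genes in Veh Water (21.3% of the 8922 genes), in 95 in Veh DSS (14.9%) and in 9 in TSO DSS (16.7%). In TSO DSS, LPMC lay under IEC without overlap in 5 (5.23%). All these values except those of TSO Water use libraries on which the genes were chosen, and they are given as a description.

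In IEC of TSO DSS, few of the 213 genes passed the test against Veh Water. IEC libraries had no part in the choice, though they came from the same rabbits. In IEC of TSO DSS against Veh Water, limma called 1 of the 213 genes lower and 1 higher, against 0.107% of the 11225 genes tested called lower and 3.47% called higher. At an unadjusted p under 0.05 with a fold above 2, 26 were lower and 4 higher, against 1.97% and 7.92%. The median log2 fold change was -0.56, against -0.02 over all genes tested, and 164 of the 213 lay below 0, against 52.5% of all genes. The median depended on the tool and was -0.15 with DESeq2 and -0.12 with edgeR. With these tools 124 and 119 of the 213 lay below 0, against 52.4% and 50.7% of all genes tested. On plain log2(CPM + 1), which counts mitochondrial reads in the total, 172 of the 213 lay below 0, as did 6829 of the 8922 genes, and the medians were -0.53 and -0.25. DESeq2 called 12 of the 213 lower and 5 higher, against 0.606% and 6.04% of all genes tested. The edgeR quasi-likelihood test called 1 lower and 1 higher, against 0.0624% and 3.2%. IEC TSO DSS lay under IEC Veh Water without overlap in 34 genes, against 23.0% of the 8922 genes, and under IEC Veh DSS in 6, against 4.29%.

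The number called in IEC changed with the rabbits in the fit, and rabbit 2 of TSO DSS stood on the other side of Veh Water from the rest of its group. The median distance from the IEC Veh Water mean was -0.91, 0.72 and -1.12 in rabbits 1, 2 and 3 of TSO DSS, and rabbit 2 was the highest of its group in 177 of the 213 genes, against 55.1% of the 8922. Without rabbit 2, the median log2 fold change was -1.11, and 11 of the 213 genes were called lower and 1 higher, against 0.49% and 2.76% of all genes tested. Without rabbit 3 the median was -0.16, and 5 were called lower and 1 higher, against 0.312% and 3.35%. In LPMC the same rabbit was the highest of its group in 163 genes, against 44.1%. Without rabbit 1 of TSO DSS, or rabbit 3 of Veh Water, none of the 213 was called, and the calls over all genes went from 401 to 127 and 211.

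Both genes called in IEC of TSO DSS had few reads and were named after their values were seen. ENSOCUG00000016254 on chromosome 4 had 1, 2 and 3 reads in rabbits 1, 2 and 3 of IEC TSO DSS and 59, 23 and 27 in IEC Veh Water (limma adjusted p = 0.025). Over the summed reads it was 16.5 times higher in Veh Water, with an exact 95% interval from 7.32 to 45.8 that covers counting error only. Its adjusted p was 0.093 in rabbits of room A alone. ENSOCUG00000021250 on chromosome 3 had 34, 71 and 11 reads in IEC TSO DSS and 2, 1 and 1 in IEC Veh Water (limma adjusted p = 0.014), a ratio of 32.0 with an interval from 12.2 to 119.5. Its limma adjusted p was 0.07 with the replicate block, 0.087 without rabbit 1 of TSO DSS and 0.057 without rabbit 3 of Veh Water. In LPMC the same gene was lower in TSO DSS, at 1.499 ± 0.9236 CPM against 12.79 ± 8.397 CPM in Veh Water (SD, n = 3), so that its direction in IEC was opposite to that in LPMC. With DSS alone, neither gene passed the test in IEC. ENSOCUG00000016254 had 9, 3 and 1 reads in IEC Veh DSS (limma adjusted p = 0.49) and ENSOCUG00000021250 had 12, 36 and 7 (limma adjusted p = 0.49), on the same side of Veh Water as in TSO DSS.

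In IEC of Veh DSS against Veh Water, 212 of the genes were tested and limma called 0, against 0.0625% of all genes called lower and 0.0268% called higher. At an unadjusted p under 0.05 with a fold above 2, 12 were lower and 5 higher, against 1.22% and 5.22% of the 11193 genes tested. DESeq2 called 3 lower and 3 higher, against 0.161% and 3.43% of all genes tested. The edgeR quasi-likelihood test called 0 of the genes and 2 of all. The limma median log2 fold change was -0.22, against -0.05 over all genes tested. Its sign changed with single rabbits. It was 0.21 without rabbit 2 of Veh DSS, 0.06 without rabbit 1 of Veh Water and -0.62 without rabbit 1 of Veh DSS. Without rabbit 1 of Veh DSS, limma called 7 lower and 0 higher, against 0.5% and 2.2% of all genes tested. Here too rabbit 2 was low, with medians of 0.18, -0.85 and 0.08 in rabbits 1, 2 and 3, and it was the lowest of its group in 139 of the 213 genes, against 36.0% of the 8922. In IEC of TSO Water against Veh Water, 211 were tested and limma called 0 of them and 0 of the 10985 genes tested. The edgeR quasi-likelihood test also called 0 and 0, and DESeq2 called 0 of the 211 and 22 of all, 1 lower and 21 higher. At an unadjusted p, 3 were lower and 1 higher, against 0.51% and 1.2%, and the limma median was -0.31, against -0.02 over all genes. Below 0 lay 171 of the 211, against 52.9% of all genes, and 150 with DESeq2 or edgeR, against 50.3% of all genes with either tool. On plain log2(CPM + 1) it was 195 of the 213, as were 7423 of the 8922 genes. The limma median for TSO Water moved with single rabbits. It was 0.04 without rabbit 1 of Veh Water, -0.65 without rabbit 3 of Veh Water and -0.16 in rabbits of room A alone. Libraries lay under IEC Veh Water without overlap in 12 genes for Veh DSS, against 9.73% of the 8922, and in 11 for TSO Water, against 8.28%. The 3 IEC comparisons share the Veh Water libraries.

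**Figure D5:**
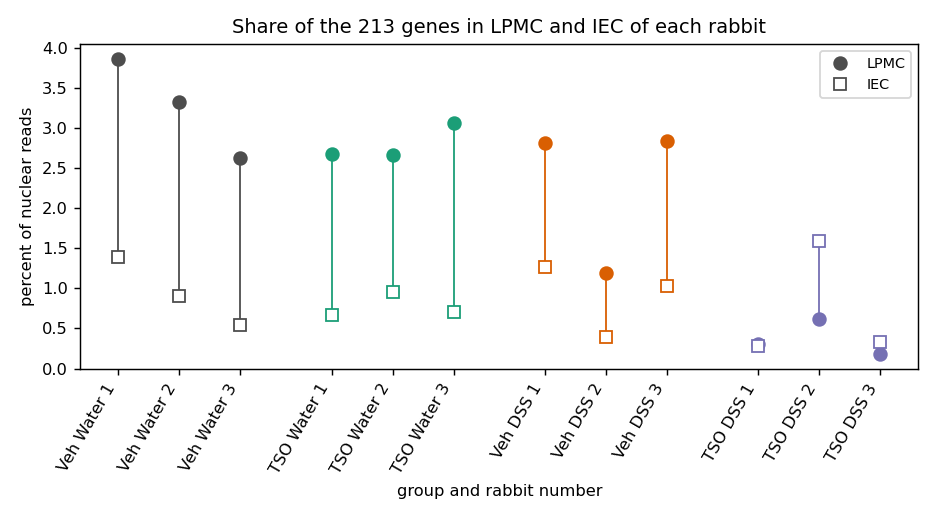
Share of nuclear reads of the 213 genes, in percent, in LPMC (filled circles) and IEC (open squares) of each of the 12 rabbits, with a line joining both cell types of a rabbit. LPMC lies above IEC in all rabbits outside TSO DSS, and in TSO DSS the LPMC shares are 0.304, 0.614 and 0.177% and the IEC shares 0.284, 1.59 and 0.326%.

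In IEC the 213 genes took 1.39, 0.904 and 0.538% of the nuclear reads in rabbits 1, 2 and 3 of Veh Water, a mean of 0.945% ± 0.43 (SD, n = 3). They took 0.666, 0.952 and 0.710% in TSO Water, 1.27, 0.390 and 1.04% in Veh DSS, and 0.284, 1.59 and 0.326% in TSO DSS, where the mean was 0.735% ± 0.744 (SD, n = 3). The IEC groups overlapped. In both cell types, rabbit 2 was the lowest of Veh DSS and the highest of TSO DSS by this share.

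Whether ova acted differently with and without DSS was tested only in IEC, since in LPMC the genes were chosen on it. By a limma interaction of ova with DSS, 0 of the 213 genes were called, as were 0 of the 11382 genes tested, and at an unadjusted p under 0.05 with a fold above 2 it was 1 of the 213 and 73 of all. In a design of 3 against 3 an exact permutation test of a single value cannot go below p = 0.1, and none was used.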

How the data were processed

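Polyadenylated RNA was sequenced, as unstranded single reads per the labels, while the study's methods describe paired inserts. The submitters' processing notes name OryCun 2.0 and FastQC. The aligner and counter are not given in the sources used here. The authors deposited 6 tables, each with a normalized signal per gene in 1 cell type, for 3 libraries of a treated group and 3 of Veh Water. They also hold the authors' log2 ratios, p-values, FDR and clusters, which were not used. The deposited signal is a read number multiplied by a constant for each library, and tables were scaled separately. Reads were recovered from the step between low values, with at least 99.88% of the values under 1000 in every library within 0.1 of a whole number.

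All 36 columns were mapped to 24 libraries by name. Levels are CPM of recovered reads. Comparisons within a table were tested with limma 3.58.1 (trend) in R 4.3.3 on log2(deposited value + 1) over genes the authors marked present, and LPMC against IEC on TMM-scaled log2(CPM + 1). A call needed a Benjamini-Hochberg adjusted p under 0.05 over all genes tested and an absolute log2 fold change above 1. A fold change on these scales understates that of low genes. The planned test of LPMC TSO Water against Veh Water is not used in the report, because its reference libraries served in the choice of the genes. Only medians of its fold changes are given, as a description. Libraries of 1 group are different rabbits. LPMC and IEC of a replicate number come from the same rabbit, by the study's sample sheet, and their deviations from the group means in TSO Water correlated between -0.19 and 0.30 across genes. Alternatives were a pseudocount of 0.1, no filter, CPM of nuclear reads, DESeq2 1.42.0, a replicate block, room A alone and each replicate left out. An edgeR 4.0.16 quasi-likelihood test on recovered reads was added after seeing the data. The scripts were tested on simulated data.

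The 213 genes and all lists were chosen with earlier results of these data known. The criteria name 2 identifiers to be left out. Both were taken out of the 213 genes and of the other falling genes whatever their values, and they are not described here. Genes are named by 2 rules, the 2 largest falls in LPMC TSO DSS and the 2 largest positive differences in LPMC TSO Water, and others are marked as chosen later. Lists of cell type markers and of adhesion genes were not run, since no symbol could be matched.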

Additional observations from a re-analysis of the deposited data

How the results depend on the processing

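The number of genes that met the criteria differed with the scale used and with the libraries included. With a pseudocount of 0.1 it was 379, of which 169 were among the 213, and on the deposited values it was 378, with 157 shared. It was 233 with CPM of nuclear reads (187 shared) and 205 with TMM scaling (179 shared). Leaving out 1 library gave 117 to 577 genes, and without rabbit 2 of Veh DSS it was 334. In IEC of TSO DSS, where limma called 2 of the 213 and 401 of all genes, DESeq2 called 17 and 746, rabbits of room A alone gave 1 and 331, and leaving out 1 rabbit gave 0 to 12 and 127 to 411. CPM of nuclear reads gave 2 lower and 1 higher there. In IEC of Veh DSS, where limma called 0 and 10, DESeq2 called 6 and 402, the fit with no filter 1 and 10, and leaving out 1 rabbit gave 0 to 7 and 0 to 302, so that the calls over all genes moved as well. Calls for LPMC of TSO Water against Veh Water are not given, since these Veh Water libraries were used in the choice. The cause of these differences was not tested.

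For LPMC against IEC in TSO Water, 138 to 164 of the 213 were called under the alternatives run, and 138 to 163 when 1 library was left out. With CPM of nuclear reads the median over all genes moved to -0.18 and that of the 213 to 2.01, with 154 called higher and 1 lower, and over all genes 1450 higher and 742 lower in place of 1589 and 471. With the rabbit as a block, 164 were called in place of 159. In the other comparisons a replicate number is shared by different rabbits. As a block, it left 0 called in IEC of TSO DSS in place of 2 (202 of all genes in place of 401), and 0 in IEC of Veh DSS and of TSO Water. The deviations of equal numbers correlated between -0.61 and 0.36, and every library correlated best with its own number only in IEC of Veh DSS. With 3685522 reads, rabbit 3 of LPMC TSO DSS limits what can be said of low genes there. With 3 rabbits a group, a p above the threshold does not show that values were equal.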
